A study of Mus musculus with 6 samples.

Results

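Molecular chaperones are the proteins that help other proteins fold, keep them from clumping and hand them on to their partners or to degradation. The 85 genes described here encode the chaperonins, the heat-shock proteins of the HSP70, HSP90 and small families, the J-domain cochaperones that bring clients to HSP70, and prefoldin. They were chosen by symbol (Tcp1, the Cct genes, Hspa, Hspb, Hsp90, Hspd1, Hspe1, Hsph1, Dnaja, Dnajb, Dnajc and Pfdn genes) among 19938 genes measured, each gene being read from its brightest probe set with exactly 1 gene symbol. Hsp90ab1 and Hspa1b have no such probe set and are not among the 85.

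Macrophages were sorted by flow cytometry from hepa1-6 tumours, a mouse hepatoma line implanted orthotopically in the liver of C57BL/6 mice, and their total RNA was measured on Affymetrix Mouse Gene 1.0 ST arrays. The PLX3397 group, treated with a CSF1R kinase inhibitor, has 3 arrays, and the vehicle group has 3. CSF1R is the receptor on which most macrophages depend. All mice carried the same kind of tumour; no dose, duration or age is given in the sources used here, and the titles call the replicates biological without saying that each came from its own mouse, so the p-values rest on the spread among these arrays, part of which may be technical. The description fields carry a second name for each group, of macrophages given IL4 for PLX3397 samples and LPS with interferon-gamma for vehicle samples, which goes against the titles, sources and treatment labels; groups follow the titles.

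Values below are the deposited log2 values, and a change is the PLX3397 mean minus the vehicle mean on that scale with its standard error (SE) from limma. A gene rose or fell where its Benjamini-Hochberg adjusted p over all genes was under 0.05. Background was set from 1194 receptor genes of the nose (olfactory and vomeronasal), as the level that 95% of them stay under on an array; it lay between 3.56 and 3.58 on the PLX3397 arrays and between 3.52 and 3.53 on the vehicle arrays. All 10 listed macrophage genes were above background on every array, though 4 fell (Adgre1 by 0.42, Ptprc by 0.51, Fcgr1 by 0.79 and Mertk by 0.37) and 2 rose (Itgam by 0.97 and Cd14 by 0.55). Among those that did not pass were Lyz2 at 12.56 ± 0.06 on PLX3397 arrays and 12.75 ± 0.01 on vehicle arrays (SD, n = 3 each) and Csf1r at 11.05 ± 0.11 on PLX3397 arrays and 10.96 ± 0.02 on vehicle arrays. Endothelial genes were higher with PLX3397 in 4 of 5 cases, with Tek below background on every array. A summed log2 level is the log2 of the sum of a list's unlogged values. That of the endothelial genes was 8.64 to 8.68 on PLX3397 arrays and 7.11 to 7.24 on vehicle arrays. Of 8 neutrophil genes, 5, among them Ly6g and Elane, were below background on every array. The summed log2 level of the 8, set mainly by Csf3r (change -1.55), was 8.12 to 8.45 on PLX3397 arrays and 9.37 to 9.58 on vehicle arrays, while Ly6g and Ltf had changes of 0.33 and 0.28. The summed log2 level of 5 dendritic cell genes was 7.47 to 8.48 on PLX3397 arrays and 6.02 to 6.15 on vehicle arrays, set mainly by Ccr7 (change 3.35). Zbtb46 also rose, by 0.39, and Flt3, at 0.26, did not pass. Xcr1 and Clec9a were below background on every array. For 5 T cell genes the summed level was 6.96 to 7.02 on PLX3397 arrays and 5.88 to 6.01 on vehicle arrays, set mainly by Lat (change 1.95). Cd3d, Cd3g and Cd2 were below background on every array, though Cd2 passed as higher (change 0.32), and Cd3e did not pass (0.07). For 4 B cell genes it was 6.05 to 6.20 on PLX3397 arrays and 5.70 to 5.80 on vehicle arrays. Cd79b, above background on every array, rose by 0.62, and Pax5 did not pass (change -0.07). Cd79a and Ms4a1 passed as higher (0.32 and 0.43) but were below background on every array. The 4 NK cell genes had a summed log2 level of 5.45 to 5.65 on PLX3397 arrays and 5.37 to 5.44 on vehicle arrays. None of these 4 passed, and 3 were below background on every array. For 5 hepatocyte and hepatoma genes the summed log2 level was 11.20 to 11.55 on PLX3397 arrays and 8.54 to 8.68 on vehicle arrays, set mainly by Trf (change 2.85). Alb and Ttr were below background on every array, and no gene of this list other than Trf passed the threshold. The part of such cells in the results below was not tested, and on bulk arrays fewer cells of a type and less RNA per cell cannot be told apart.

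More chaperone genes fell than rose in macrophages from PLX3397-treated mice, and 45 of the 85 did not pass. Of the 85 genes, 33 fell and 7 rose, while 18.3% of all genes fell, 19.6% rose and 37.8% changed in either direction. Falls of at least 0.5 log2 numbered 24 and rises of that size 3, against 11.4% and 8.7% of all genes. The 3 larger rises were those of Hspb6, Dnajc5 and Hspa4l. The median change over the 85 genes was -0.09, beside 0.04 over all genes. Groups did not overlap in 50 of the 85 members (58.8%), and in 49.3% of all genes. Of the members 72 exceeded background on all 6 arrays, as did 12709 of all genes. Of these 72 members 55.6% changed, beside 52.7% of the 12709 genes, so the share that changed was close to that of all such genes. The split differed: 45.8% of the 72 fell and 9.72% rose, beside 26.3% and 26.4% of the 12709. Among genes with a mean level of 8 or more, a limit chosen after the values were seen, 17 of 24 members fell and 2 rose, with a median change of -0.71, whereas 32.4% of all 1975 such genes fell and 33.3% rose, with a median of -0.01. Another scaling moved the balance over all genes: when arrays were centred on their medians the median change of all genes shifted by -0.11, 34.2% of all calls were higher in place of 51.7%, and 40 members fell and 5 rose. With quantile normalisation 29 members fell and 10 rose. Relative to the median of all genes, the members' median was -0.13 as deposited and -0.13 with quantile normalisation; centring shifts all genes alike and leaves this value as it is.

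**Figure D1:**
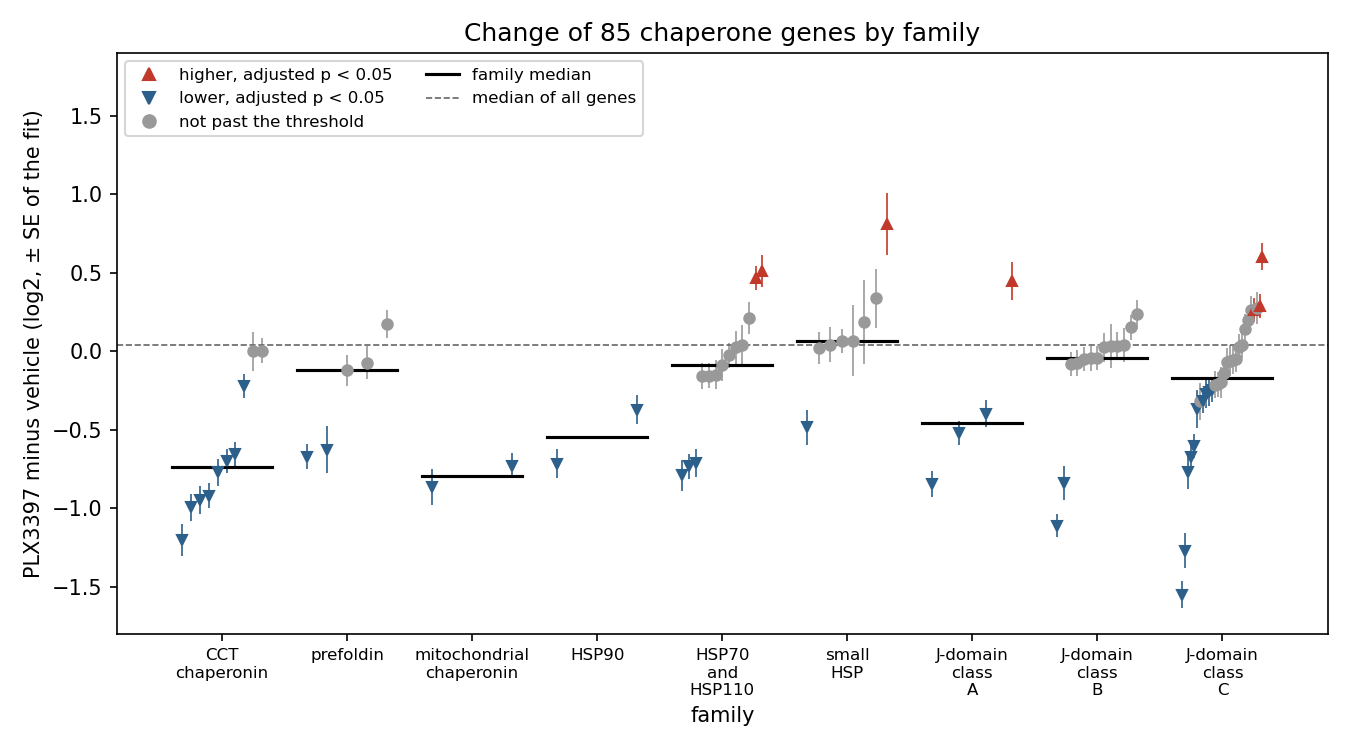
Change of each of the 85 genes (PLX3397 minus vehicle, log2, bars give the SE of the fit), grouped by family along the horizontal axis; triangles mark adjusted p under 0.05, black lines the family medians and the dashed line the median of all genes, 0.04. The 8 expressed CCT subunits and both mitochondrial chaperonin genes lie below 0, while most class B J-domain genes and most small heat-shock protein genes lie near it.

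The families differed in how many of their members passed, beside 37.8% of all genes. The share was 80% in the CCT chaperonin, 46.4% in J-domain class C, 40% in prefoldin and 38.5% in HSP70 with HSP110. It was 25% in the small heat-shock proteins, 15.4% in class B and 100% in the other families, of 2 to 4 genes. Median vehicle levels ran from 4.33 in the small heat-shock proteins to 10.94 in HSP90. Of all genes with a mean level of 8 or more, 65.7% passed. The CCT chaperonin had a median change of -0.74, the mitochondrial chaperonin -0.80, HSP90 -0.54 and J-domain class A -0.46. HSP70 with HSP110 had a median of -0.09, J-domain class B -0.04, class C -0.17 and prefoldin -0.12. These 8 medians were below 0 under each scaling tried, but that of HSP70 with HSP110 was -0.197 with centred arrays and -0.022 without vehicle replicate 2, and that of class B turned to 0.0244 when dim genes were left out. The small heat-shock proteins had a median of 0.07, which turned to -0.04 with quantile normalisation; with centred arrays it was -0.04 too, by the shift of all genes. No test was made over the members of a family.

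CCT, also called TRiC, is a barrel of related subunits in the cytosol inside which actin, tubulin and other proteins fold. All 8 subunit genes that were above background fell: Tcp1, Cct2, Cct3, Cct4, Cct5, Cct6a, Cct7 and Cct8. Cct6b, the testis form of the zeta subunit, and Cct8l1 were below background on all 6 arrays. Cct4 showed the largest fall of the family, with 7.93, 7.78 and 7.57 on the PLX3397 arrays and 8.98, 8.90 and 9.01 on the vehicle arrays. Its change was -1.20 (SE 0.10, limma adjusted p = 7.61e-06), a 2.30-fold lower level. The 3 PLX3397 values all lay under the lowest vehicle value, with a wider spread than among vehicle arrays.

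Cct8 had 8.26, 8.11 and 8.28 on the PLX3397 arrays and 9.20, 9.29 and 9.14 on the vehicle arrays, a change of -0.99 (SE 0.09). Cct6a had 8.61, 8.47 and 8.32 with PLX3397 and 9.40, 9.41 and 9.44 with vehicle, a change of -0.95 (SE 0.09). Cct5 had 8.64, 8.68 and 8.54 with PLX3397 and 9.51, 9.55 and 9.56 with vehicle, a change of -0.92 (SE 0.08). In each of these subunits the gap between the groups was several times the spread within either. Cct2 fell by 0.77 (SE 0.09), Cct7 by 0.70 (SE 0.08) and Tcp1, the alpha subunit that gave the complex its name, by 0.65 (SE 0.07). The adjusted p-values from limma for the 7 subunits other than Cct3 ran from 7.61e-06 to 5.66e-05.

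Cct3, the gamma subunit, moved least. It had 9.55, 9.57 and 9.55 on the PLX3397 arrays and 9.70, 9.82 and 9.82 on the vehicle arrays. Its change of -0.22 (SE 0.08, limma adjusted p = 0.0448) was close to the threshold. It missed the threshold with quantile normalisation (limma adjusted p = 0.0807), with the replicate number as a block (0.0784) and when any single array other than vehicle replicate 1 was left out (0.0746 to 0.130), although the groups did not overlap.

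**Figure D2:**
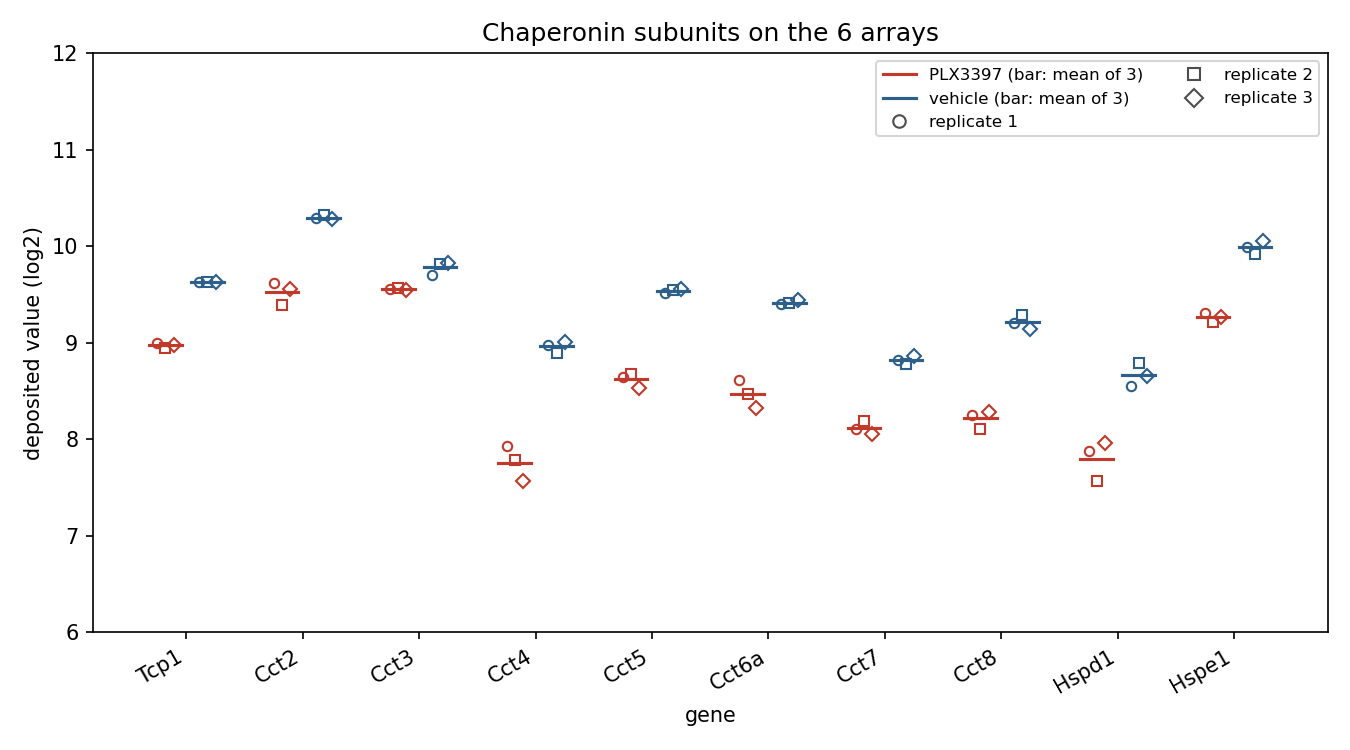
Deposited log2 values of the 8 expressed CCT subunit genes and of the mitochondrial chaperonin genes Hspd1 and Hspe1 on each array, PLX3397 left of vehicle for each gene, with bars at the mean of 3. In every gene shown the 3 PLX3397 values lie below the 3 vehicle values, with the narrowest gap in Cct3.

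Prefoldin is the jellyfish-shaped complex that catches new actin and tubulin chains and passes them to CCT. Of its 5 Pfdn genes 2 fell (40%) and 0 rose. Among all genes above background on 6 arrays, as these 5 were, 26.3% fell, 26.4% rose and 52.7% changed in either direction. Pfdn6 had 6.862, 6.998 and 6.884 on PLX3397 arrays and 7.53, 7.61 and 7.62 on vehicle arrays, a change of -0.67 (SE 0.08, limma adjusted p = 8.02e-05). Pfdn4 had 4.46, 5.03 and 4.40 on PLX3397 arrays and 5.24, 5.17 and 5.36 on vehicle arrays, a change of -0.63 (SE 0.15, limma adjusted p = 0.00751). PLX3397 replicate 2 came close to the vehicle values of Pfdn4. Pfdn1, Pfdn2 and Pfdn5 had changes of 0.17, -0.12 and -0.07 and did not pass, except that Pfdn1 passed as higher with quantile normalisation (limma adjusted p = 0.0312). The sixth subunit of the complex is encoded by Vbp1, which the symbol rule does not take in; it fell to 5.20 ± 0.08 with PLX3397, against 6.51 ± 0.16 with vehicle (SD, n = 3 each), a change of -1.32 (SE 0.10, limma adjusted p = 3.60e-06).

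Other helpers of CCT and of tubulin folding were taken from a list of 9 genes, Vbp1 included. It was chosen with earlier results of these data known. Of the 9 genes 7 fell (77.8%) and 0 rose, with a median change of -0.83. All 9 were above background on 6 arrays, and of all such genes 26.3% fell and 26.4% rose. Pdcl, a phosducin-like partner of CCT, had a change of -0.99, and Tbce, a tubulin cofactor, one of -0.90. The tubulin cofactor genes Tbcc and Tbcd did not pass, at 0.20 and 0.10.

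Hspd1 and Hspe1 encode the chaperonin of the mitochondrial matrix and its lid. They are neighbours on chromosome 1 and are transcribed away from each other. In the RefSeq promoter table (build GRCm38.p6) their start sites lie 216 bases apart, and the windows of 250 bases before to 50 after the start share 285 bases; Hspd1 has a second listed start. The window of Hspe1, which is almost the whole of that region, is shown because it holds the letters of the heat-shock element, the site of the factor HSF1, in their strict form. Capitals mark matches to GAANNTTC followed by NNGAA (N is any base) on either strand (there are 2, which overlap), read on the plus strand at chr1:55087898-55088197.
Hspe1: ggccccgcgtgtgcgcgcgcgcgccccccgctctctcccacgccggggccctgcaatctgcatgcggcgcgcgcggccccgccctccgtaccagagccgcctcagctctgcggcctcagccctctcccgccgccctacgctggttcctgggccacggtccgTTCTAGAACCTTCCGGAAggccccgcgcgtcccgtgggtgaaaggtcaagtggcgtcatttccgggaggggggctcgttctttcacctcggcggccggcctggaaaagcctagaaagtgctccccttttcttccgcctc

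Both genes that face this region fell. Hspd1 had 7.88, 7.56 and 7.96 on the PLX3397 arrays and 8.55, 8.79 and 8.65 on the vehicle arrays, a change of -0.87 (SE 0.11, limma adjusted p = 1.72e-04). Hspe1 had 9.31, 9.21 and 9.27 on the PLX3397 arrays and 9.99, 9.92 and 10.06 on the vehicle arrays, a change of -0.73 (SE 0.08, limma adjusted p = 4.28e-05). In both genes the 3 PLX3397 values lay below all 3 vehicle values. Each gene has a second probe set, and these gave -1.03 for Hspd1 and -0.74 for Hspe1.

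Of the 7 members listed for the mitochondrion, Hspd1 and Hspe1 included, 6 fell, 0 rose and the median change was -0.40. Of all genes 18.3% fell and 19.6% rose. Among those above background on 6 arrays, as these 7 members were, the shares were 26.3% and 26.4%. The count of 6 depends on which members were listed. Dnajc4, Dnajc30 and Dnajc28, J-domain class C members not on the list, had changes of 0.26, 0.20 and 0.14 and did not pass. With quantile normalisation Dnajc4 and Dnajc30 passed as higher (limma adjusted p = 0.0068 and 0.0143). Hspa9, the HSP70 of the matrix, had 9.31, 9.18 and 9.30 on PLX3397 arrays and 10.04, 9.97 and 9.99 on vehicle arrays, a change of -0.73 (SE 0.08, limma adjusted p = 4.02e-05). Its J-domain partners changed less, with Dnaja3 at -0.40, Dnajc15 at -0.37 and Dnajc19, of the import motor, at -0.32. The fall of Dnajc15 was lost in 5 of 18 alternatives, with limma's adjusted p at 0.187 after quantile normalisation. Of 8 further genes of the mitochondrial chaperone and protease system, also above background on 6 arrays, 4 fell (50%) and 1 rose (12.5%). Trap1, the mitochondrial HSP90, had a change of -0.46, the unfoldase gene Clpx one of -0.46 and the protease gene Clpp one of 0.47.

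HSP90 holds kinases, steroid receptors and other signalling proteins in a state ready for activation. Hsp90aa1, the cytosolic alpha form, had 10.24, 10.41 and 10.32 on PLX3397 arrays and 10.97, 11.18 and 10.97 on vehicle arrays, a change of -0.72 (SE 0.09, limma adjusted p = 1.34e-04). Its 3 probe sets gave changes from -0.75 to -0.72. Hsp90b1, the form of the endoplasmic reticulum, had 10.61, 10.47 and 10.34 on PLX3397 arrays and 10.82, 10.94 and 10.78 on vehicle arrays, a smaller change of -0.37 (SE 0.09, limma adjusted p = 0.00950). Groups did not overlap in either gene.

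Of 15 measured HSP90 cochaperones 9 fell (60%) and 2 rose (13.3%), with a median change of -0.41. Among all genes above background on 6 arrays, as these 15 were, 26.3% fell and 26.4% rose. Ptges3, which encodes the cochaperone p23, had a change of -0.88 (SE 0.08). Unc45a, a myosin chaperone that works with HSP90, rose by 0.70 (SE 0.10). The immunophilin gene Fkbp5, a classical target of the glucocorticoid receptor, also rose, to 6.15 ± 0.15 with PLX3397, against 4.92 ± 0.05 with vehicle (SD, n = 3 each), a change of 1.23 (SE 0.09, limma adjusted p = 3.61e-06).

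HSP70 proteins bind short greasy stretches of unfolded chains in cycles driven by ATP, and HSP110 proteins are their relatives that exchange the nucleotide. Of 13 genes 3 fell (23.1%) and 2 rose (15.4%), shares near the 18.3% and 19.6% of all genes. The constitutive cytosolic form Hspa8 had 11.65, 11.52 and 11.54 on PLX3397 arrays and 11.77, 11.70 and 11.71 on vehicle arrays. Its change was -0.15 (SE 0.08, limma adjusted p = 0.157), which passed as lower with quantile normalisation (0.0372), with centred arrays (0.0265) and with a variance trend (0.0454). Hspa5, the HSP70 of the endoplasmic reticulum known as BiP, had 10.97, 10.90 and 10.82 on PLX3397 arrays and 11.07, 11.12 and 10.98 on vehicle arrays, a change of -0.16 (SE 0.08, limma adjusted p = 0.163), which passed as lower when arrays were centred (0.0295). Groups did not overlap in either gene, which was the case for 49.3% of all genes.

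Hspa1a, the form classically induced by heat, had 5.35, 5.35 and 5.78 on PLX3397 arrays and 5.41, 5.59 and 5.37 on vehicle arrays, with a change of 0.04 (SE 0.12, limma adjusted p = 0.840). Hspa2, Hspa14, Hspa1l, Hspa12a and Hspa12b had changes from -0.15 to 0.21 and did not pass, Hspa12a and Hspa12b lying near background. Hspa13, a small HSP70 relative of the microsomes, had 6.47, 6.78 and 6.49 on PLX3397 arrays and 7.31, 7.43 and 7.37 on vehicle arrays, a change of -0.79 (SE 0.10, limma adjusted p = 1.22e-04).

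The 3 genes of the HSP110 branch went in opposite directions. Hspa4 had 8.43, 8.20 and 8.28 on PLX3397 arrays and 8.95, 9.11 and 8.99 on vehicle arrays, a change of -0.71 (SE 0.09, limma adjusted p = 1.18e-04). Its paralogue Hspa4l had 6.89, 7.24 and 7.0 on PLX3397 arrays and 6.47, 6.61 and 6.51 on vehicle arrays, a change of 0.51 (SE 0.10, limma adjusted p = 0.00262). Hsph1 had 8.31, 8.20 and 8.21 on PLX3397 arrays and 7.79, 7.76 and 7.78 on vehicle arrays, a change of 0.47 (SE 0.08, limma adjusted p = 7.61e-04). Thus Hsph1 and Hspa4l were higher on every PLX3397 array than on any vehicle array, and Hspa4 was lower on every one.

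Hsph1 also has the strict heat-shock letters near its start, so the stretch around one of its listed start sites is shown, from 60 bases before to 50 after it, read on the minus strand at chr5:149636266-149636375 (RefSeq, GRCm38.p6). The capitals mark the match, just past the start site.
Hsph1: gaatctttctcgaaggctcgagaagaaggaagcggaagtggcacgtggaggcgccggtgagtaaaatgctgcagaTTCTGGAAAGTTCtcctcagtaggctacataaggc

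The strict letters, searched on both strands, were present for 4 of the 70 members with a promoter window (5.71%), against 0.662% of 27025 genes with one. The 4 were Hspd1 and Hspe1, which fell and share the region, Hsph1, which rose, and Dnajb6, described below. The shorter palindrome GAANNTTC, which is part of the strict form, was present for 15 of the 70 members (21.4%) and 9.04% of all genes. Its counterpart TTCNNGAA, also part of the strict form, was present for 8 (11.4%) and 9.60%. None of the 9 CCT genes with a window held the strict letters, and 2 held GAANNTTC. A match is a description of the letters and not of binding.

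Of 9 other nucleotide exchange factors 3 fell (33.3%) and 2 rose (22.2%). These shares were near the 26.3% and 26.4% of all genes above background on 6 arrays, as these 9 were. Hspbp1, which opens HSP70 in the cytosol, had a change of -0.47, Sil1, which does so for BiP, one of 0.42, and Grpel2 of the mitochondrion one of -0.36. Its mitochondrial paralogue Grpel1 went the other way, at 0.32 (limma adjusted p = 0.0211).

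**Figure D3:**
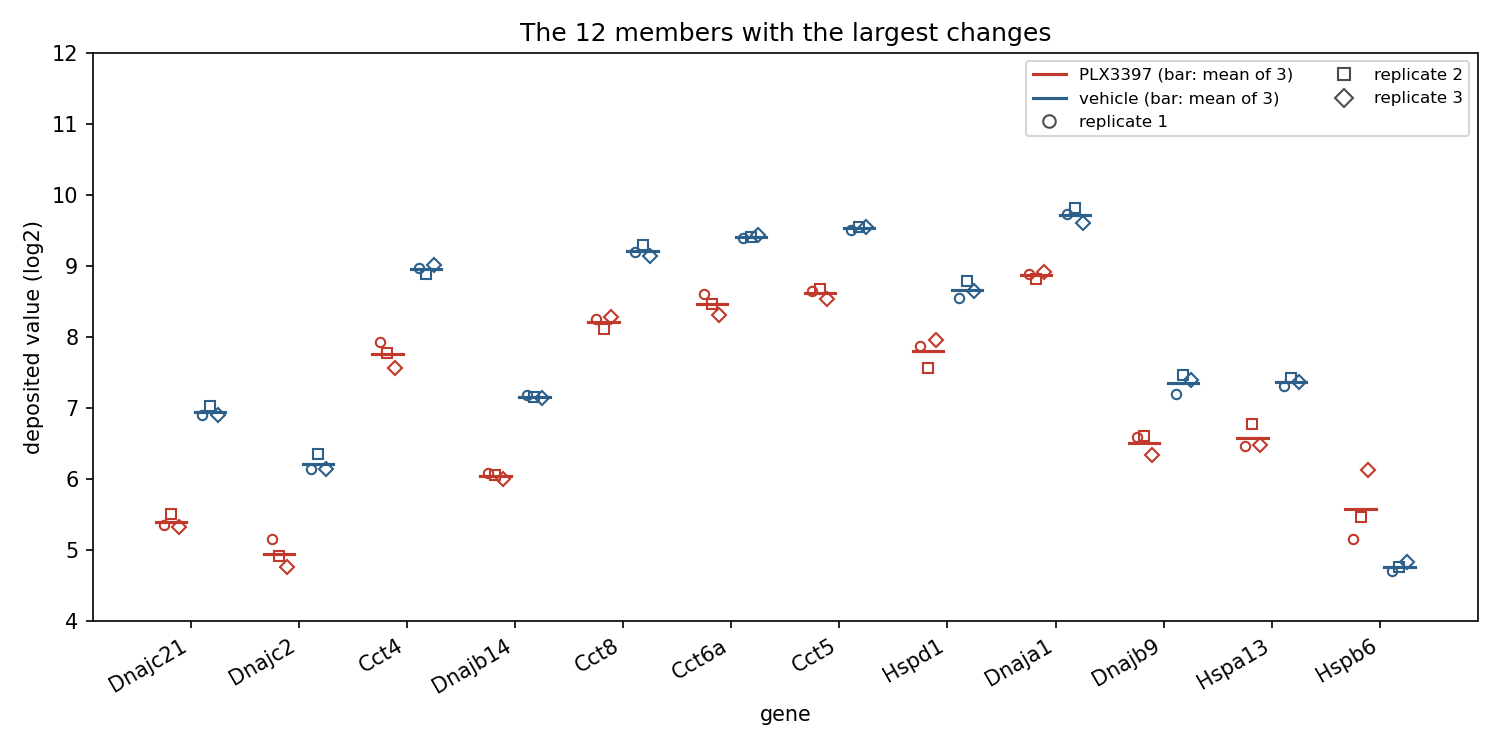
Deposited log2 values on each array for the 12 members with the largest absolute changes among those past the threshold, ordered from the largest fall at the left to the only rise, Hspb6, at the right; PLX3397 stands left of vehicle and bars are means of 3. Dnajc21 shows the widest gap, with 5.32 to 5.51 on PLX3397 arrays and 6.90 to 7.03 on vehicle arrays.

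J-domain proteins carry a short helical domain that switches on the ATPase of HSP70, and they are sorted into classes A, B and C by what else they contain. Of 45 genes 15 fell (33.3%) and 4 rose (8.89%), beside 18.3% and 19.6% of all genes. In either direction 42.2% changed, near the 37.8% of all genes. The largest changes among all 85 members were in class C, in a pair of genes whose products work at the ribosome. Dnajc21, whose yeast relative acts in the maturation of the large ribosomal subunit, had 5.36, 5.51 and 5.32 on PLX3397 arrays and 6.90, 7.03 and 6.91 on vehicle arrays, a change of -1.55 (SE 0.09, limma adjusted p = 4.75e-07). Dnajc2, which sits on the ribosome with the HSP70 relative Hspa14, had 5.15, 4.92 and 4.76 on PLX3397 arrays and 6.14, 6.36 and 6.14 on vehicle arrays, a change of -1.27 (SE 0.11, limma adjusted p = 1.10e-05). Both were lower on each PLX3397 array by a wide margin, whereas Hspa14 itself had a change of -0.15 (limma adjusted p = 0.237).

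In the rest of class C, Dnajc13, which acts on endosomes, fell by 0.77 (SE 0.11), and its 15 probe sets all gave falls, from -0.95 to -0.43. Dnajc3, a BiP partner also known as an inhibitor of stress kinases, fell by 0.67 (SE 0.09), and Dnajc7, which links HSP70 with HSP90, by 0.60 (SE 0.08). A further 5 genes fell by less than 0.5, with changes from -0.37 to -0.24, among them Dnajc18 and Dnajc24, whose calls were each lost in 8 of 18 alternatives. Dnajc5, the cysteine-string protein of secretory vesicles, was an exception and had 8.46, 8.65 and 8.62 on PLX3397 arrays and 7.91, 7.97 and 8.03 on vehicle arrays, a change of 0.60 (SE 0.09, limma adjusted p = 2.68e-04). Dnajc16 and Dnajc14 rose by 0.29 and 0.27, and both calls were lost when arrays were centred. With quantile normalisation 6 class C genes fell and 6 rose, in place of 10 and 3. The other 15 class C genes had changes from -0.32 to 0.28 and did not pass, and Dnajc5b and Dnajc22 of these were below background on all arrays.

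Class A, the closest partners of HSP70 in general folding, changed in all 4 genes. Dnaja1 had 8.89, 8.82 and 8.92 on PLX3397 arrays and 9.74, 9.82 and 9.61 on vehicle arrays, a change of -0.85 (SE 0.08, limma adjusted p = 2.42e-05), and its second probe set gave -0.63. Dnaja2 fell by 0.52 (SE 0.08). Dnaja4, a cytosolic form, rose, with 5.01 ± 0.22 on PLX3397 arrays and 4.56 ± 0.14 on vehicle arrays (SD, n = 3 each), a change of 0.45 (SE 0.12, limma adjusted p = 0.0134). This call was lost with quantile normalisation (limma adjusted p = 0.0549), without vehicle replicate 2 (0.0571) and without vehicle replicate 3 (0.0508).

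In class B 2 of 13 genes fell (15.4%) and 0 rose, while 18.3% of all genes fell. Both genes that fell encode proteins of the endoplasmic reticulum. Dnajb14, anchored in its membrane, had 6.09, 6.06 and 6.00 on PLX3397 arrays and 7.18, 7.16 and 7.14 on vehicle arrays, a change of -1.11 (SE 0.08, limma adjusted p = 1.82e-06). Dnajb9, a BiP partner that restrains the stress sensor IRE1, had 6.60, 6.61 and 6.34 on PLX3397 arrays and 7.20, 7.47 and 7.40 on vehicle arrays, a change of -0.84 (SE 0.11, limma adjusted p = 1.19e-04). The other 11 class B genes had changes from -0.08 to 0.24 and did not pass. Among them Dnajb11, also of the endoplasmic reticulum, and Dnajb12 had changes of 0.02 and 0.03. The 11 also include Dnajb1, the heat-inducible partner of HSP70, with 7.34, 7.36 and 7.37 on PLX3397 arrays and 7.43, 7.35 and 7.44 on vehicle arrays.

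Of the 8 members listed for the endoplasmic reticulum 5 fell and 0 rose, beside 18.3% and 19.6% of all genes. The shares were 26.3% and 26.4% among all genes above background on 6 arrays, as these 8 were. The median change of the 8 members was -0.32, with Dnajb11 at 0.02, and the list holds neither Dnajb14 nor Dnajb12. Of 10 other folding genes of that compartment, also above background on 6 arrays, 2 fell (20%) and 2 rose (20%), beside the same 26.3% and 26.4%. The disulphide isomerase genes Pdia4 and P4hb rose by 1.12 and 0.91, while Sec63, a J-domain protein of the translocation channel, had a change of -0.39.

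Among all genes above background on 6 arrays, as were all genes of the 3 lists in this paragraph, 26.3% fell and 26.4% rose. Of the 8 measured genes listed as heat-inducible in the cytosol 2 fell (25%, Dnaja1 and Hsp90aa1) and 1 rose (12.5%, Hsph1). Their median change was -0.0048. The list includes Hspa8, described above as constitutive. It takes Hspa1a from its own probe set, whereas the probe set shared with Hspa1b had a change of 0.41. Of 9 measured heat-shock factor and HSF1-related genes 5 fell (55.6%) and 2 rose (22.2%). Hsf2, a heat-shock factor, fell to 5.16 ± 0.16 with PLX3397, against 6.53 ± 0.08 with vehicle (SD, n = 3 each), a change of -1.36 (SE 0.10, limma adjusted p = 2.52e-06). Chordc1, an HSP90-binding protein, had a change of -1.29 and Cacybp, an adaptor of ubiquitin ligases, one of -1.21. The 2 that rose were Cryab, with a change of 0.62 (limma adjusted p = 6.39e-04), and Bag3, with one of 0.37 (0.00778). Groups did not overlap in either of these. Of 8 immediate-early genes, which rise when cells are handled, 3 rose (37.5%) and 2 fell (25%). Their summed log2 level was 11.31 to 11.59 on PLX3397 arrays and 11.10 to 11.29 on vehicle arrays. Their part in the heat-shock gene values was not tested.

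The small heat-shock proteins hold unfolded proteins in large assemblies without ATP. Of 8 genes 1 rose (12.5%) and 1 fell (12.5%), beside 19.6% and 18.3% of all genes. Hspb6, known from muscle, had 5.15, 5.46 and 6.13 on PLX3397 arrays and 4.71, 4.76 and 4.84 on vehicle arrays, a change of 0.81 (SE 0.20, limma adjusted p = 0.00835). Groups did not overlap, and replicate 3 was the highest of the PLX3397 arrays. Hspb11, which despite its name is a subunit of the intraflagellar transport machinery, had 3.60, 3.94 and 3.66 on PLX3397 arrays and 4.29, 4.07 and 4.29 on vehicle arrays, a change of -0.49 (SE 0.11, limma adjusted p = 0.00555). Its values on PLX3397 replicates 1 and 3 lay close to background, which was 3.58 and 3.56 on those arrays.

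The same PLX3397 replicate 3 stood apart in other small heat-shock genes. Hspb1 had 3.99, 4.11 and 5.25 on PLX3397 arrays and 4.22, 4.22 and 4.36 on vehicle arrays. Hspb8 had 4.13, 4.14 and 5.13 on PLX3397 arrays and 4.38, 4.40 and 4.42 on vehicle arrays. Hspb7 had 4.12, 4.05 and 4.90 on PLX3397 arrays and 4.10, 3.98 and 3.98 on vehicle arrays. In Hspb1 and Hspb8, PLX3397 replicates 1 and 2 were below every vehicle array and replicate 3 above every one, and neither gene passed (limma adjusted p = 0.631 and 0.849). Without replicate 3 Hspb8 passed as lower, at -0.27 (limma adjusted p = 0.0336), and Hspb6 still passed as higher, at 0.54 (0.00301). On that array 4 members, Hspb1, Hspb6, Hspb7 and Hspb8, exceeded the mean of PLX3397 replicates 1 and 2 by over 0.5, and 117 of all genes exceeded it by over 1. For the other arrays, each set against the rest of its group, 1 to 5 genes did so. The fibroblast gene Dcn was at 7.64, 8.62 and 9.09 on PLX3397 arrays and 6.91, 7.46 and 8.12 on vehicle arrays, and the summed log2 level of the 5 fibroblast genes was 8.59 to 9.60 on PLX3397 arrays and 8.43 to 9.12 on vehicle arrays, highest on PLX3397 replicate 3 and set mainly by Dcn, while Col1a1 and Col1a2 had changes of -0.60 and -0.43. Its part in the small heat-shock gene values was not tested. Hspb2, Hspb3 and Hspb9 had changes from 0.02 to 0.07.

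**Figure D4:**
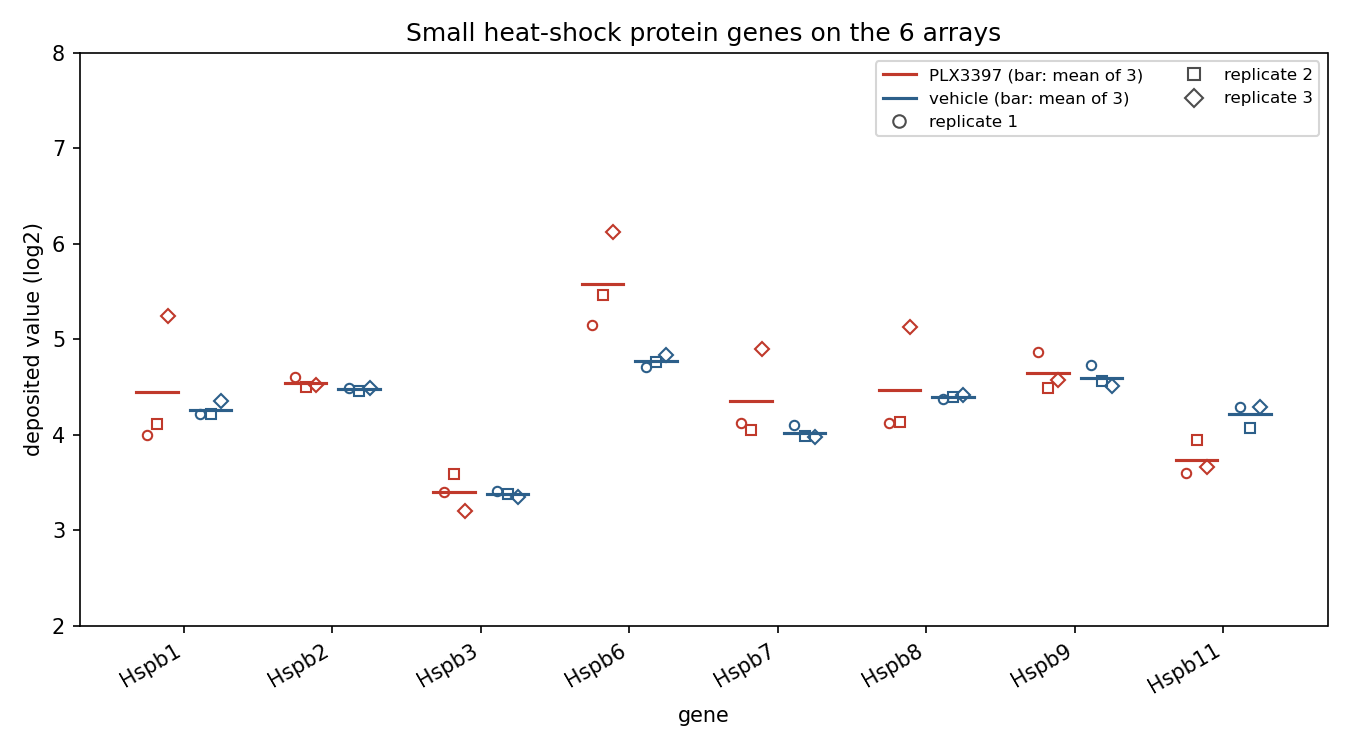
Deposited log2 values of the 8 small heat-shock protein genes on each array, PLX3397 left of vehicle, with bars at the mean of 3 and symbols for the replicate number. PLX3397 replicate 3 (diamond) is well above the other PLX3397 arrays in Hspb1, Hspb6, Hspb7 and Hspb8.

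For 4 members the choice of probe set mattered. There were 10 probe sets that carry a member's symbol together with others and that do not enter the gene values; they were tested with all 23410 probe sets that have a symbol. The probe set of Hspa1a and Hspa1b together had 7.24, 6.93 and 7.36 on PLX3397 arrays and 6.91, 6.60 and 6.81 on vehicle arrays, a change of 0.41 (SE 0.13, limma adjusted p = 0.0280), whereas Hspa1a alone did not pass. The probe sets shared by Hspa8 and the small nucleolar RNAs Snord14c and Snord14d, which lie in introns of Hspa8, had changes of 0.53 and 0.54 (limma adjusted p = 9.93e-04 and 8.70e-04), while the 3 probe sets of Hspa8 alone ran from -0.15 to -0.10. The probe set shared by Dnaja1 and the microRNA gene Mir207 had a change of 0.60 (limma adjusted p = 2.62e-04), opposite to both probe sets of Dnaja1 alone.

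Dnajb6, a potent suppressor of aggregation, is read here from a probe set near background (change 0.03), with 4.13, 4.02 and 3.92 on PLX3397 arrays and 4.31, 3.96 and 3.70 on vehicle arrays. The 4 probe sets it shares with the predicted gene Gm4247 were far above background, the first with 9.82, 9.92 and 9.86 on PLX3397 arrays and 9.44, 9.41 and 9.52 on vehicle arrays, and their changes ran from 0.33 to 0.40 (limma adjusted p from 0.00206 to 0.00620). Dnajb6 therefore stands as uncertain among the genes that did not pass. The strict heat-shock letters near its start, in capitals, are shown for comparison with Hspe1 and Hsph1, from 80 bases before to 50 after one listed start site, on the plus strand at chr5:29735818-29735947 (RefSeq, GRCm38.p6).
Dnajb6: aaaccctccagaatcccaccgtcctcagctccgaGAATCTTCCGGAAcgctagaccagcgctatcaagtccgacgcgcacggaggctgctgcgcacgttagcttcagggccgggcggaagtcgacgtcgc

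The 2 probe sets shared by Dnajb14 and Pin4 fell by 0.96 and 0.96, the direction of Dnajb14 alone.

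**Figure D5:**
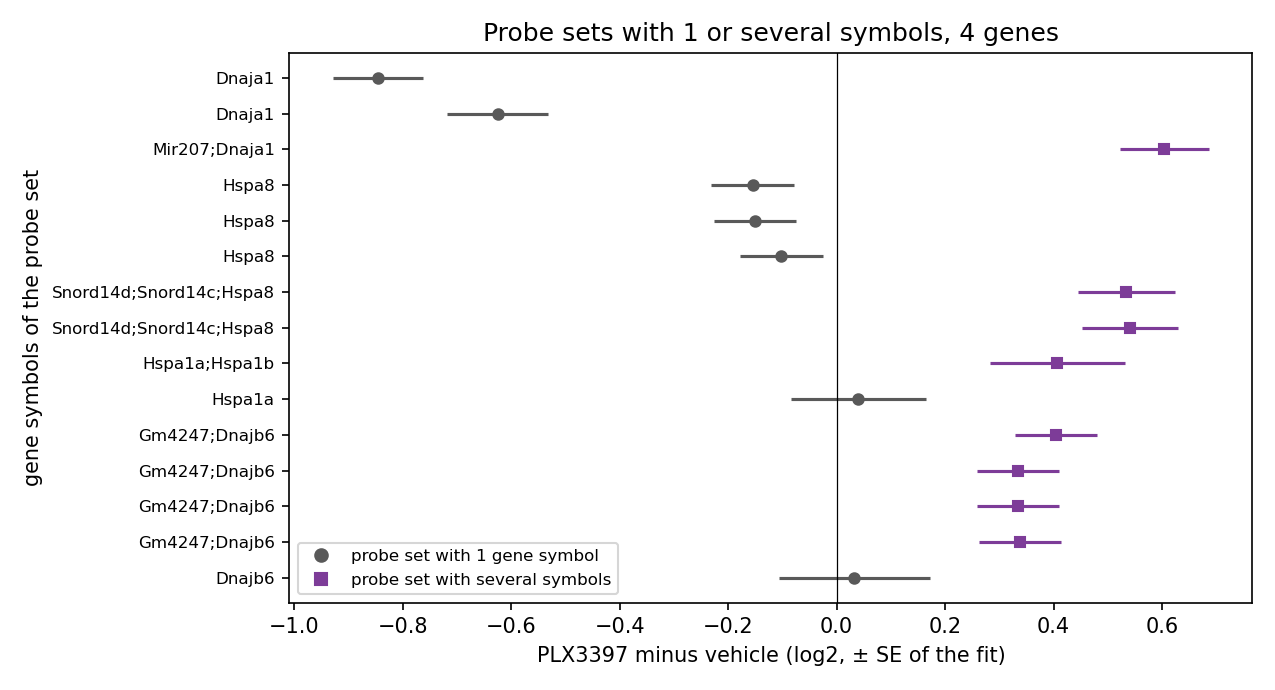
Change (PLX3397 minus vehicle, log2, bars give the SE of the fit) of each probe set that carries the symbol of Dnaja1, Hspa8, Hspa1a or Dnajb6, circles for probe sets with 1 gene symbol and squares for those with several. Probe sets with several symbols lie above 0 for all 4 genes, while those of Dnaja1 and Hspa8 alone lie below it.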

How the data were processed

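Arrays are Affymetrix Mouse Gene 1.0 ST. The values the authors deposited, 1 per probe set and array, were read as log2, since they run from 1.57 to 13.5; no source used here states the summarisation or normalisation. MAS5 is named in the submitters' processing notes without a stated step. Array medians differed by at most 0.14, under the limit of 0.5 set for quantile normalisation, so values were used as deposited. Of 28941 probe sets 21789 carry 1 symbol, and the brightest over the 6 arrays stood for each gene (a choice among several for 999 of 19938 genes). All 85 members matched a RefSeq gene. Groups were compared by limma's moderated two-sided test with a group term (version 3.58.1, under R 4.3.3), with Benjamini-Hochberg adjustment over all genes; the fit was tested on simulated data. The precision is limited by 3 arrays per group. Members, families, lists and background rule were chosen with earlier results of these data known. Named individually were all chaperonin, prefoldin and HSP90 members and Hsph1, members of the other families that passed with a change of at least 0.5, and up to 3 genes of each further list; other names were chosen after values were seen. Promoter windows are RefSeq's; protein sequences were not used here. Figures were drawn with matplotlib 3.10.9.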

Additional observations from a re-analysis of the deposited data

How the results depend on the processing

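Over 18 alternatives, 32 of the 40 members that changed kept their call and direction in each that tested them, and 32 of the 45 that did not pass passed in none. Calls were lost at least once for Cct3, Dnaja4, Dnajc1, Dnajc14, Dnajc15, Dnajc16, Dnajc18 and Dnajc24. The median change over all members, -0.087 as deposited, was -0.117 with quantile normalisation, -0.197 with centred arrays, -0.212 and -0.251 over genes with a mean level of at least 4 and of at least 5, -0.204 with the background filter, -0.113 with array weights and -0.13 to -0.109 when 1 array was left out. The class B J-domain median turned to 0.0244 both with a mean level of at least 4 and with the background filter, which test fewer genes; leaving out 1 array gave -0.0641 to 0.00766, the highest without vehicle replicate 2. Hspb8 changed by -0.265 without PLX3397 replicate 3 and by up to 0.236 when another array was left out. Genes that rose numbered 2455 with centred arrays, 2587 with a mean level of at least 5, 2475 at an adjusted p under 0.01 and 1734 at a change of at least 0.5, where 2263 fell. Members that rose numbered 4 at an adjusted p under 0.01 and 3 at a change of at least 0.5. With a mean level of at least 4, 1 small heat-shock gene passed, and with at least 5, 1 small heat-shock gene and 1 prefoldin gene. With the replicate block 30 members fell and 7 rose, and 3 calls were lost, those of Cct3, Dnajc18 and Dnajc24; same-numbered arrays did not deviate together (correlations of -0.01, 0.008 and -0.013), so the numbers were not taken as pairs. Testing all probe sets with a symbol was added after the data were seen. Where no construction is named, the cause was not tested. The precision is limited by 3 arrays per group, and dim genes near background have the least room to show a fall.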
